A study of Mus musculus with 24 samples.

Results

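Astrocyte genes were followed across 3 regions of the mouse suprachiasmatic nucleus (SCN), the master circadian clock of the hypothalamus. They are 34 genes listed by symbol, chosen because astrocytes are known to express them strongly, and each was read from its brightest probe set on average. These genes, and the marker lists set beside them, were chosen with earlier results of these data known. All 34 had a probe set and passed the filter on low values (log2 value above 4 on at least 4 arrays), among 18193 genes with a probe set and 13494 tested. Adult C57BL/6 mice, obtained at 8 weeks of age and all kept in constant dim red light for at least 7 days, were given a phase-advancing light pulse of 30 min or a sham and died 3.5 h afterwards. Ventral, central and dorsal SCN were dissected by laser from haematoxylin-stained coronal sections 25 µm thick, so the samples were chosen by position and not by a cell marker, and the sources used here do not give the borders. Each region and treatment gave 4 Affymetrix arrays, 2 in each of 2 amplification and labelling batches, A (replicates 1 and 2) and B (replicates 3 and 4). The sources used here give neither how many mice each array holds nor which arrays share a mouse, so the p-values measure the spread between these samples, which may be technical.

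Astrocytes take up glutamate and potassium released by neurons, move water and bicarbonate across membranes, store glycogen, supply lipids and cholesterol carriers, and convert thyroid hormone to its active form. In the SCN they lie among densely packed neurons, carry a circadian clock of their own and can influence the rhythm of the neurons through extracellular glutamate. In bulk tissue such as this, fewer cells of a type and less RNA per cell cannot be told apart.

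The peptides Vip, Grp and Avp differed between the regions. Vip, a peptide of the core, was highest in the ventral SCN (12.07 to 12.27 in batch A), intermediate in the central (11.24 to 11.81) and lowest in the dorsal SCN (6.87 to 8.88), and batch B had the same order. Grp, another core peptide, was highest in the central SCN and Avp, the peptide of the shell, in the dorsal SCN. The mean of all 7 core markers, relative to the batch mean, overlapped between regions. On sham arrays it ranged from -0.22 to 0.08 in ventral, -0.26 to 0.42 in central and -0.82 to 0.25 in dorsal SCN. For the 7 shell markers the sham ranges were -0.54 to -0.16, -0.82 to 0.02 and -0.15 to 0.25. Batch medians lay apart (3.52 to 3.62 in A, 4.81 to 5.07 in B on the log2 scale), so levels are given within a batch or as a log2 value minus the gene's batch mean. The array of dorsal pulsed replicate 4 stood apart. Its 3' minus 5' difference of the Gapdh control probe sets was 5.41, against 0.887 to 1.07 on the other 11 arrays of batch B. The 12 arrays of batch A had 2.02 to 3.28, also above those 11 arrays. Dorsal pulsed replicate 4 had a median correlation with batch B of 0.913, against 0.977 to 0.987. On this array 9 of the 34 genes were below and 8 above all other 23 arrays after subtraction of the batch mean, while 25.6% and 26.6% of all tested genes were so. Results are therefore given with and without this array. Central pulsed replicate 2 had the lowest correlation in batch A, 0.955.

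**Figure D1:**
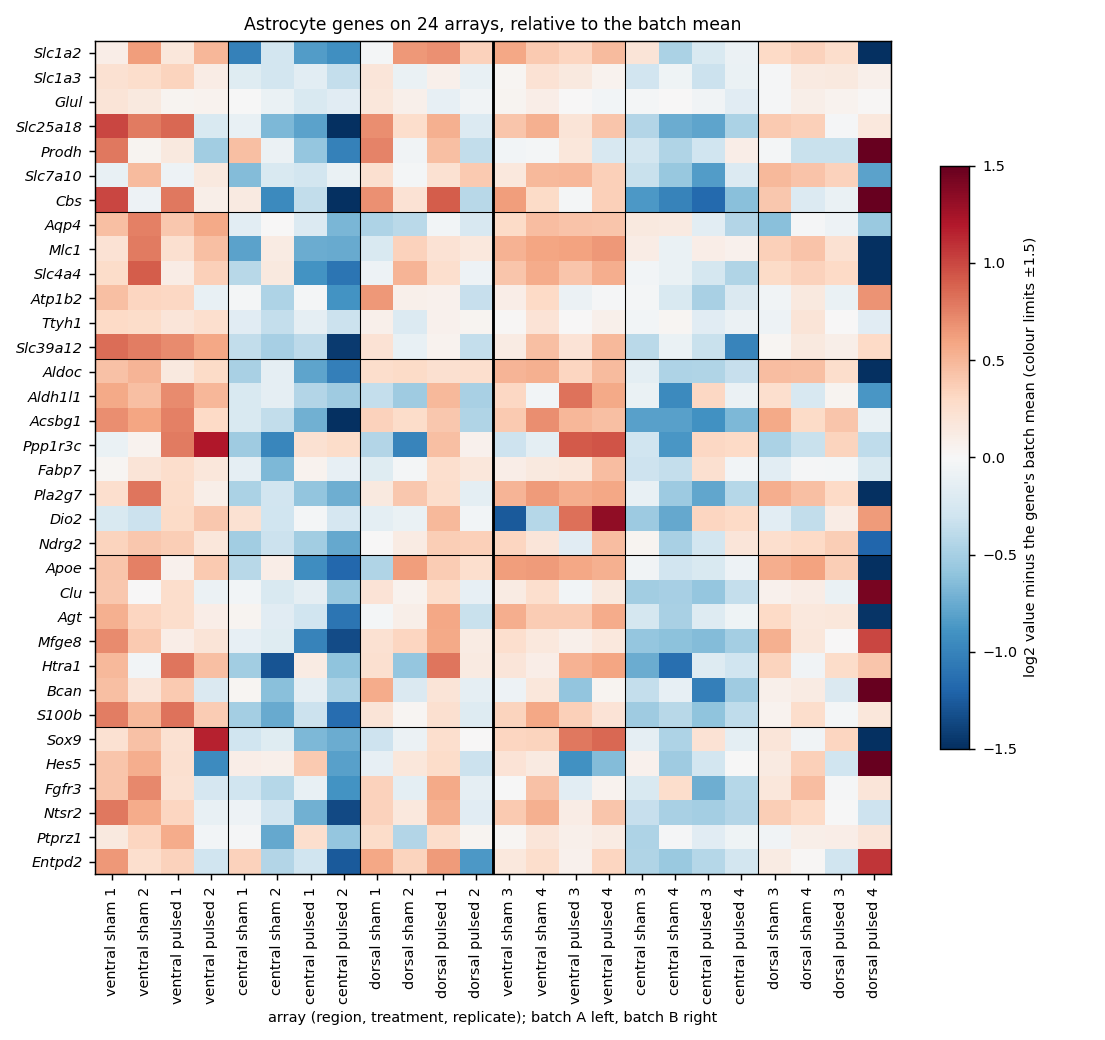
Log2 value of each of the 34 astrocyte genes minus its batch mean (colour, limited to ±1.5), on the 24 arrays, with batch A left and batch B right, and genes grouped by role. The central SCN columns are mostly blue and the ventral columns mostly red, and dorsal pulsed 4 differs from its neighbours in both directions.

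The leading result was a low level of astrocyte genes in the central SCN. With limma, 19 of the 34 genes were higher in the ventral than in the central SCN at an adjusted p under 0.05 (8 against 8 arrays, both treatments, batch as a term) and 0 were lower, while 4.36% of all tested genes were higher and 0.845% lower. At an unadjusted p under 0.05, 29 were higher and 0 lower, and 12.9% of all tested genes differed in either direction. The median difference was 0.67 on the log2 scale, against 0.05 over all tested genes, and the 34 values ran from 0.00 for Hes5 to 1.32 for Acsbg1. Between central and dorsal SCN, 11 of 34 were lower in the central SCN and 0 higher, beside 5.14% of all tested genes lower and 1.96% higher. The median there was -0.47, against -0.05 over all tested genes, and 18 were lower and 0 higher at an unadjusted p under 0.05, where 19.3% of all tested genes differed. Both differences passed for 10 genes: Slc25a18, Slc7a10, Cbs, Slc39a12, Acsbg1, Mfge8, Htra1, S100b, Fgfr3 and Ntsr2. Between ventral and dorsal SCN, 3 of 34 were higher in the ventral SCN (Aqp4, Ppp1r3c and Aldh1l1) and 0 lower, beside 2.63% and 1.98% of all tested genes, and 11 were higher and 0 lower at an unadjusted p under 0.05, where 15% of all tested genes differed.

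Leaving out dorsal pulsed replicate 4 raised the counts. Ventral minus central SCN uses no dorsal array, so its differences did not change. The added calls there came with a changed estimate of the spread, which all groups share. The genes higher in ventral than in central SCN became 28 (6.83% of all tested genes), those lower in central than in dorsal SCN 18 (6.51%), and those higher in ventral than in dorsal SCN 4 (2.99%), Sox9 being the added gene. Both central differences then passed for 18 genes, the 8 additions being Slc1a2, Mlc1, Slc4a4, Aldoc, Pla2g7, Ndrg2, Apoe and Clu. Medians moved little: 0.67 for ventral minus central, -0.48 for central minus dorsal and 0.16 for ventral minus dorsal SCN, the last having been 0.20 with all arrays.

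The order of ventral over central SCN was also seen within each batch and treatment. The mean of the ventral arrays exceeded that of the central arrays for 33 of 34 genes in each of the 4 combinations of batch and treatment, while 48.2% to 73.1% of all tested genes did so. In batch A the central SCN was the lowest region for 33 of 34 genes (49.2% of all tested genes) and the ventral the highest for 30 (39.7%). In batch B the corresponding counts were 26 (37%) and 24 (31.3%). All 4 ventral arrays lay above all 4 central arrays in each batch for 12 of the 34 genes, against 2.26% of all tested genes: Slc1a2, Slc1a3, Aqp4, Mlc1, Slc39a12, Aldoc, Acsbg1, Pla2g7, Agt, Mfge8, S100b and Sox9. All 4 dorsal arrays lay above all 4 central arrays in each batch for 4 (Slc1a3, Slc39a12, Mfge8 and S100b), against 1.58% of all tested genes. Fitted within batch A alone, 11 of the 34 genes were higher in ventral than in central SCN (1.23% of all tested genes), 4 lower in central than in dorsal (0.889%) and 1 higher in ventral than in dorsal SCN (0.726%). Within batch B alone the counts were 5 (1.06%), 3 (1.15%) and 0 (0.437%). Aqp4 was the gene for which ventral and dorsal arrays did not overlap in either batch (1.24% of all tested genes). In the opposite directions 0 of the 34 separated in this way, for central over ventral (0.371% of all tested genes), central over dorsal (0.637%) and dorsal over ventral SCN (0.897%).

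**Figure D2:**
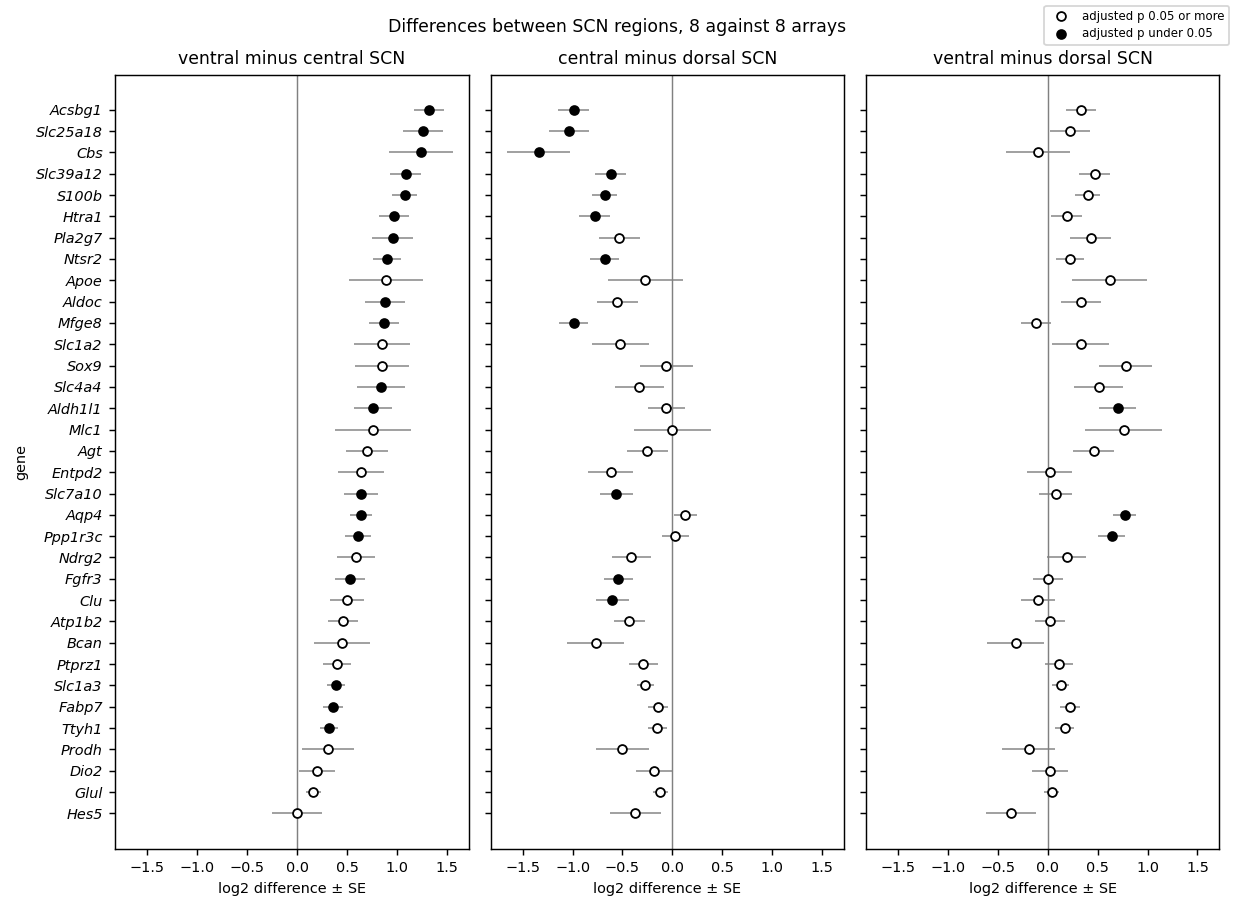
Log2 difference ± SE between regions for the 34 genes (limma, 8 against 8 arrays, both treatments), ordered by ventral minus central SCN; filled points have an adjusted p under 0.05. The left panel lies at or right of 0 for all genes and the middle panel mostly left of it, while 3 points are filled in the right panel.

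Among the genes of glutamate uptake and amino acid handling, 4 of 7 were higher in ventral than in central SCN, beside 4.36% of all tested genes. Slc1a3, the glutamate transporter GLAST, ranged from 10.45 to 10.67 on the 4 ventral, 9.98 to 10.18 on the central and 10.22 to 10.52 on the dorsal arrays of batch A, and from 12.15 to 12.34, 11.80 to 12.06 and 12.11 to 12.27 in batch B. Its central arrays lay below all others in both batches, and the difference of ventral from central SCN was 0.39 ± 0.0873 (1.31-fold, adjusted p = 0.00734). With the mean of all Slc1a3 probe sets it was 0.43 and missed the threshold (adjusted p = 0.0635). Central minus dorsal SCN was -0.27 ± 0.0873 and missed the threshold (adjusted p = 0.0702).

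Slc25a18, a mitochondrial glutamate carrier, showed a larger step. Its ventral, central and dorsal arrays ranged from 6.77 to 8.0, 4.89 to 6.89 and 6.79 to 7.70 in batch A, and from 8.55 to 8.89, 7.57 to 7.92 and 8.34 to 8.75 in batch B. In batch B the central arrays did not overlap the other regions, and in batch A they overlapped at their edges. Ventral exceeded central SCN 2.40-fold (1.26 ± 0.200, adjusted p = 0.000238), and central lay below dorsal SCN by 2.06-fold (-1.04 ± 0.200, adjusted p = 0.00166). Cbs, which makes cystathionine from homocysteine, had differences of 1.24 ± 0.319 (adjusted p = 0.0218) and -1.34 ± 0.319 (adjusted p = 0.0101). Its value on dorsal pulsed replicate 4, 8.97, was above every other array, and without that array the second difference was -1.05. The first call on Cbs ended in 4 of 24 leave-one-out fits and with quantile normalization (adjusted p = 0.0521). Slc7a10, a neutral amino acid transporter, was near the filter level in batch A (mean 3.93) and differed by 0.64 ± 0.166 (adjusted p = 0.0224) and -0.56 ± 0.166 (adjusted p = 0.0404). Leaving out single arrays ended the Slc7a10 calls in 6 and 11 of 24 fits (highest adjusted p = 0.0598 and 0.101), and centring arrays on the median ended the second (adjusted p = 0.0526).

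The other 3 genes of this role did not pass in a comparison of regions. Slc1a2, the glutamate transporter GLT-1, had differences of 0.85 ± 0.284 for ventral minus central SCN (adjusted p = 0.0987) and -0.52 ± 0.284 for central minus dorsal SCN. Without dorsal pulsed replicate 4, where Slc1a2 was 9.54 against 11.91 as the median of the dorsal arrays of batch B, both passed, at 0.85 (adjusted p = 0.000471) and -0.85 (adjusted p = 0.000808). Glul, glutamine synthetase, differed by 0.16 ± 0.0752 and -0.12 ± 0.0752. Prodh, proline dehydrogenase, had a mean of 4.29 in batch A, near the filter level, and differences of 0.31 ± 0.263 and -0.50 ± 0.263.

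Water, ion and membrane transport genes were higher in ventral than in central SCN in 4 of 6 cases, beside 4.36% of all tested genes. Aqp4, the water channel of astrocyte endfeet, had values of 8.54, 8.70, 10.80 and 10.78 on the ventral pulsed arrays (replicates 1 to 4 here and below) and 8.58, 8.89, 10.65 and 10.83 on the ventral sham arrays. Its central arrays gave 7.93, 7.44, 10.21 and 9.93 when pulsed and 7.97, 8.14, 10.51 and 10.50 after sham, and the dorsal arrays 8.09, 7.89, 10.29 and 9.81 when pulsed and 7.67, 7.73, 9.74 and 10.35 after sham. In each batch the ventral arrays were above all others, while central and dorsal arrays overlapped. Aqp4 was 1.71-fold higher in ventral than in dorsal SCN (0.77 ± 0.115, adjusted p = 0.000126) and 1.56-fold higher than in central SCN (0.64 ± 0.115, adjusted p = 0.000916), and central minus dorsal SCN was 0.13 ± 0.115 (adjusted p = 0.567). With the mean of all 3 Aqp4 probe sets the ventral minus central difference was 0.30 and missed the threshold (adjusted p = 0.0799).

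Slc39a12, a zinc transporter, was low in the central SCN against both neighbours. Its ventral, central and dorsal arrays ranged from 8.10 to 8.35, 6.08 to 7.14 and 7.16 to 7.73 in batch A, and from 9.66 to 10.02, 8.55 to 9.44 and 9.57 to 9.84 in batch B. The central arrays did not overlap those of either region. The differences were 1.09 ± 0.155 (2.12-fold, adjusted p = 7.38e-05) for ventral minus central and -0.62 ± 0.155 (adjusted p = 0.0144) for central minus dorsal SCN. Slc4a4, the sodium bicarbonate cotransporter, and Ttyh1, a membrane protein of astrocyte processes, were higher in ventral than in central SCN by 0.84 ± 0.243 and 0.32 ± 0.0924. Both lay close to the threshold (adjusted p = 0.0457 and 0.0448), and leaving out single arrays ended either call in 19 of 24 cases.

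Mlc1, a membrane protein of perivascular astrocyte processes, and Atp1b2, a subunit of the sodium pump, did not pass with all arrays. Mlc1 read 7.80 on dorsal pulsed replicate 4, while the dorsal arrays of batch B had a median of 11.62. Its ventral minus central difference was 0.76 with and without that array (adjusted p = 0.43 and 0.000518 by limma). Central minus dorsal SCN was -0.49 without it (adjusted p = 0.0276). For Atp1b2 the ventral minus central difference was 0.46 in both fits (adjusted p = 0.0999 and 0.0282).

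Genes of energy, lipid and hormone metabolism were higher in ventral than in central SCN in 6 of 8 cases, beside 4.36% of all tested genes. Acsbg1, an acyl-CoA synthetase for long fatty acids, had the largest difference of the 34. Its values were 6.88, 6.42, 8.41 and 8.36 on ventral pulsed and 6.82, 6.71, 8.30 and 8.61 on ventral sham arrays, and 5.40, 4.52, 7.0 and 7.24 on central pulsed and 5.89, 5.75, 7.09 and 7.09 on central sham arrays. Dorsal arrays gave 6.52, 5.67, 8.32 and 7.81 when pulsed and 6.47, 6.40, 8.48 and 8.20 after sham. All central arrays lay below all ventral arrays of their batch, and dorsal arrays sat near the ventral ones, apart from dorsal pulsed replicate 2, which lay among the central arrays. Ventral exceeded central SCN 2.49-fold (1.32 ± 0.151, adjusted p = 4.97e-06), and central lay 1.98-fold below dorsal SCN (-0.99 ± 0.151, adjusted p = 0.000158).

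Pla2g7, which inactivates platelet-activating factor, Aldoc, the aldolase of astrocytes, Aldh1l1, the folate enzyme used as an astrocyte marker, and Fabp7, the brain fatty acid binding protein, were higher in ventral than in central SCN as well. Their differences were 0.96 ± 0.205 for Pla2g7 (adjusted p = 0.00503), 0.88 ± 0.201 for Aldoc (adjusted p = 0.00859), 0.76 ± 0.186 for Aldh1l1 (adjusted p = 0.0149) and 0.36 ± 0.1 for Fabp7 (adjusted p = 0.0345). The Fabp7 call ended in 10 of 24 leave-one-out fits (highest adjusted p = 0.0903) and with arrays centred on the median (adjusted p = 0.102). Aldh1l1 was also 1.63-fold higher in ventral than in dorsal SCN (0.70 ± 0.186, adjusted p = 0.0285). That call ended in 8 of 24 cases when single arrays were left out, and with the mean of its 2 probe sets both of its calls ended (adjusted p = 0.197 against central and 0.385 against dorsal SCN). The dimmer probe set had a mean of 3.19 and a ventral minus dorsal difference of -0.07. Aldoc and Pla2g7 read lowest of all arrays on dorsal pulsed replicate 4 after subtraction of the batch mean. Without it they were lower in central than in dorsal SCN by 0.80 and 0.77 in size (adjusted p = 4.33e-06 and 4.47e-05).

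Ppp1r3c, which targets protein phosphatase 1 to glycogen, was 1.53-fold higher in ventral than in central SCN (0.61 ± 0.134, adjusted p = 0.00591) and 1.56-fold higher than in dorsal SCN (0.64 ± 0.134, adjusted p = 0.00448). Its central minus dorsal difference was 0.03 ± 0.134. In sham arrays alone the ventral excess was 0.54 over central and 0.43 over dorsal SCN and passed in neither case (adjusted p = 0.275 and 0.507). Dio2, the deiodinase that activates thyroid hormone, and Ndrg2 did not pass in a comparison of regions, with ventral minus central differences of 0.20 ± 0.182 and 0.59 ± 0.193. Ndrg2 passed without dorsal pulsed replicate 4 (0.59, adjusted p = 0.00197).

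Of the secreted and matrix proteins, 3 of 7 were higher in ventral than in central SCN and 4 of 7 lower in central than in dorsal SCN. The shares of all tested genes were 4.36% and 5.14%. S100b, a calcium-binding protein that astrocytes release, had values of 8.32, 7.89, 9.31 and 9.16 on ventral pulsed, 8.27, 7.99, 9.29 and 9.54 on ventral sham, 7.18, 6.36, 8.35 and 8.57 on central pulsed, and 7.0, 6.75, 8.42 and 8.54 on central sham arrays. On dorsal arrays it read 7.75, 7.31, 8.93 and 9.12 when pulsed and 7.70, 7.53, 9.01 and 9.22 after sham. Central arrays lay below ventral and dorsal arrays in both batches with no overlap, while dorsal and ventral arrays overlapped in batch B and not in batch A. Ventral exceeded central SCN 2.11-fold (1.08 ± 0.125, adjusted p = 5.58e-06), and central lay 1.6-fold below dorsal SCN (-0.68 ± 0.125, adjusted p = 0.00114).

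Mfge8, a secreted bridge protein for phagocytosis, ranged from 7.22 to 7.82 on ventral, 5.78 to 6.99 on central and 7.24 to 7.69 on dorsal arrays of batch A, and from 8.28 to 8.46, 7.56 to 7.70 and 8.21 to 9.21 in batch B. Its central arrays did not overlap the others, and the differences were 0.87 ± 0.149 (adjusted p = 0.000522) for ventral minus central and -0.99 ± 0.149 (adjusted p = 0.000128) for central minus dorsal SCN. Htra1, a secreted serine protease, differed by 0.97 ± 0.154 (adjusted p = 0.000253) and -0.78 ± 0.154 (adjusted p = 0.00211). Clu, clusterin, passed between central and dorsal SCN (-0.60 ± 0.169, adjusted p = 0.03), not between ventral and central SCN (0.50 ± 0.169, adjusted p = 0.105). The Clu call ended in 6 of 24 leave-one-out fits and with median centring (adjusted p = 0.0508).

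Apoe, the main lipid carrier protein of the brain, Agt, the precursor of angiotensin, and Bcan, the matrix proteoglycan brevican, did not pass in a comparison of regions with all arrays. Apoe was 6.67 on dorsal pulsed replicate 4, against a median of 10.39 for the dorsal arrays of batch B. Its ventral minus central difference was 0.89 with and without that array (adjusted p = 0.265 and 0.000281 by limma). Central minus dorsal SCN was -0.74 without it (adjusted p = 0.00264). Agt had a ventral minus central difference of 0.70 in both fits (adjusted p = 0.0515 and 0.0016). Bcan had 0.45 in both and missed the threshold (adjusted p = 0.636 and 0.0582).

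Receptors and transcription factors were higher in ventral than in central SCN in 2 of 6 cases, beside 4.36% of all tested genes. Ntsr2, a neurotensin receptor of astrocytes, ranged from 8.0 to 8.90 on ventral, 6.76 to 8.04 on central and 7.94 to 8.65 on dorsal arrays of batch A, and from 9.85 to 10.27, 9.23 to 9.40 and 9.43 to 10.11 in batch B. The regions touched in batch A and the central arrays lay below the rest in batch B. Ntsr2 differed by 0.90 ± 0.141 (1.87-fold, adjusted p = 0.000207) between ventral and central, and by -0.68 ± 0.141 (adjusted p = 0.00314) between central and dorsal SCN. Fgfr3, a receptor for fibroblast growth factors, differed by 0.53 ± 0.150 (adjusted p = 0.0379) and -0.54 ± 0.150 (adjusted p = 0.03), and centring arrays on the median ended both calls (adjusted p = 0.115 and 0.0725). They also ended in 11 and 9 of 24 leave-one-out fits, and with the mean of all probe sets the second difference was -0.25 (adjusted p = 0.134).

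Sox9, a transcription factor of astrocyte identity, had differences of 0.85 ± 0.266 (adjusted p = 0.0733) for ventral minus central and 0.78 ± 0.266 (adjusted p = 0.115) for ventral minus dorsal SCN. It read 7.77 on dorsal pulsed replicate 4, against a median of 10.05 for the dorsal arrays of batch B, and without that array the differences were 0.85 (adjusted p = 0.00011) and 0.46 (adjusted p = 0.0453). Entpd2, an enzyme that breaks down extracellular ATP, differed by 0.64 between ventral and central SCN in both fits. It passed only without the array (adjusted p = 0.137 with it and 0.0441 without, by limma). Ptprz1, a receptor phosphatase, had a difference of 0.40 ± 0.141 and Hes5, a Notch target, of 0.00 ± 0.252 between ventral and central SCN, and neither passed with or without the array. A second, dimmer Ptprz1 probe set (mean 8.80) did pass, at 0.87 between ventral and central (adjusted p = 0.00703) and -0.90 between central and dorsal SCN (adjusted p = 0.00398).

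Other probe sets passed for genes whose chosen probe set did not. Past the filter were 32 other probe sets, of 19 of the genes, and the share of such cases over all genes was not computed. This held for 4 genes between ventral and central SCN (Bcan, Clu, Ptprz1 and Slc1a2) and 4 between central and dorsal SCN (Aldoc, Glul, Ptprz1 and Ttyh1), all in the direction of the chosen probe set, and for 0 genes in the other comparisons. They include a Clu probe set (mean 9.61) at 0.67 between ventral and central SCN (adjusted p = 0.000853) and a Ttyh1 probe set (mean 8.65) at -0.67 between central and dorsal SCN (adjusted p = 0.00137).

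Other markers were lower in the central SCN too. Of 48 further astrocyte genes, 31 were higher in ventral than in central SCN (median 0.68). Between central and dorsal SCN, 21 were lower in the central SCN (median -0.41) and 1 higher. Of all tested genes, 4.36% were higher in ventral than in central SCN. Lower in central than in dorsal SCN were 5.14% of them, and 1.96% were higher. Daam2 (1.27 ± 0.116, adjusted p = 3.36e-07) and Aldh1a1 (1.74 ± 0.204, adjusted p = 6.41e-06) led the first comparison. All 13 oligodendrocyte genes tested were higher in ventral than in central SCN (median 2.37) and 9 of 13 lower in central than in dorsal SCN (median -0.98). Mog, a myelin protein, differed 9.27-fold between ventral and central SCN (3.21 ± 0.173, adjusted p = 1.15e-10), more than any astrocyte member. Oligodendrocyte genes also separated ventral from dorsal SCN, with 10 of 13 higher in the ventral (2.63% of all tested genes).

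The remaining lists changed in part. Higher in ventral than in central SCN were 3 of 6 genes of oligodendrocyte precursors, 2 of 13 of microglia and 5 of 12 of endothelial and mural cells. Lower in central than in dorsal SCN were 5 of 6, 6 of 13 and 5 of 12. The shares of all tested genes in these directions were 4.36% and 5.14%. Of 17 genes of neurons, limma called 0 between ventral and central SCN (median 0.01). At an unadjusted p under 0.05, 1 was higher in the ventral SCN, where 12.9% of all tested genes differed. Of the 17, 4 were lower in central than in dorsal SCN (median -0.21). Of 7 genes of neighbouring hypothalamic neurons, 2 were higher in ventral than in central SCN and 5 lower in central than in dorsal SCN (median -1.87). The mean of the oligodendrocyte list, relative to the batch mean, ranged from 0.71 to 1.57 on ventral, -1.66 to -0.83 on central and -0.32 to 0.42 on dorsal arrays. For the 34 astrocyte genes the corresponding ranges were 0.18 to 0.42, -0.84 to -0.22 and -0.23 to 0.35. Without dorsal pulsed replicate 4, 36 of the 48 further astrocyte genes and 13 of 13 oligodendrocyte genes were higher in ventral than in central SCN. The share of all tested genes was then 6.83%. The part of these other cell types in the astrocyte gene differences was not tested.

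**Figure D3:**
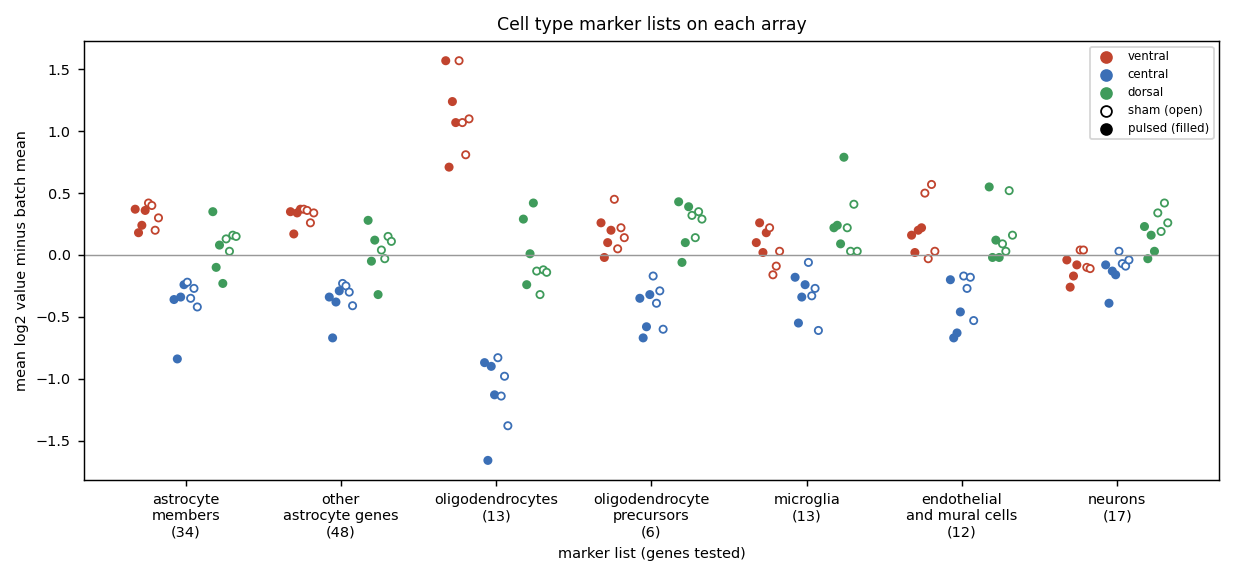
Mean log2 value minus batch mean of each marker list (number of genes tested in parentheses) on each array, coloured by region, filled for pulsed and open for sham. Astrocyte and oligodendrocyte lists are lower on the central than on the ventral arrays, with the wider separation in oligodendrocytes (0.71 to 1.57 ventral, -1.66 to -0.83 central), and dorsal pulsed 4 lies among the central arrays in the astrocyte lists (-0.23 and -0.32), while neurons show no such gap between ventral and central arrays.

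The light pulse changed few of the 34 genes. In the ventral SCN 2 were higher, Ppp1r3c and Dio2, and 0 lower, beside 0.585% of all tested genes higher and 0.133% lower; at an unadjusted p under 0.05, 2 were higher and 1 lower, where 6.56% of all tested genes differed. In the central SCN Ppp1r3c was the 1 gene higher, with 0 lower, beside 0.296% and 0.0889% of all tested genes, and 3 were higher and 3 lower at an unadjusted p under 0.05, where 8.06% of all tested genes differed. In the dorsal SCN 0 were called in either direction with all arrays, beside 0.148% higher and 0.0296% lower of all tested genes, and 1 was higher and 1 lower at an unadjusted p under 0.05, where 10.1% of all tested genes differed. The median light effect of the 34 genes was -0.10, -0.18 and -0.07 in ventral, central and dorsal SCN, against -0.03, -0.08 and -0.03 over all tested genes.

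The promoters of Ppp1r3c and Dio2 are shown because these were the genes of the 34 whose RNA rose with the pulse. They are the 250 bases before the RefSeq start in assembly GRCm38.p6, on the minus strand at chr19:36736605-36736854 for Ppp1r3c and chr12:90739039-90739288 for Dio2, with a CACGTG E-box (first) and a TGACGTCA cyclic AMP response element (second) in capitals.
Ppp1r3c: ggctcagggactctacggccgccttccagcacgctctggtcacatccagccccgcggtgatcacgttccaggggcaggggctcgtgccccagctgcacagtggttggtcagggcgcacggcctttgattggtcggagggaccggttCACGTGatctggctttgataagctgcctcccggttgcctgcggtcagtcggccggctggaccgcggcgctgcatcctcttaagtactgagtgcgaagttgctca
Dio2: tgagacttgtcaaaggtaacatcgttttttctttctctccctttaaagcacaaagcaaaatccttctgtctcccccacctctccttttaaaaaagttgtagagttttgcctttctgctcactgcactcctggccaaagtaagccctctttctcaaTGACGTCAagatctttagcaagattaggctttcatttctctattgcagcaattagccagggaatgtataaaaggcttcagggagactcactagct

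Searched on both strands of the 250 bases were TGACGTCA, its partial site TGACG, which lies within it, and CACGTG. Of the 34 genes, 30 matched the RefSeq table, with 37 promoters. TGACGTCA stood in 1 of the 37, that of Dio2 at bases 95 to 88 before the start, and in 1.55% of all 32851 promoters. TGACG stood in 3 (Dio2, Htra1 and Slc1a3), or 8.11%, against 17.8% of all promoters. CACGTG stood in 3 (Cbs, Ntsr2 and Ppp1r3c, in the last at bases 104 to 99), or 8.11%, against 6.02%. A match describes letters and no binding was measured.

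Ppp1r3c read 7.93, 8.36, 9.69 and 9.71 on ventral pulsed and 7.05, 7.21, 8.46 and 8.62 on ventral sham arrays. In the central SCN it read 7.38, 7.43, 9.08 and 9.06 when pulsed and 6.62, 6.18, 8.47 and 7.89 after sham. Within each batch every pulsed array of these regions lay above both sham arrays of the region. The light effect was 1.09 ± 0.189 in the ventral SCN (2.13-fold, adjusted p = 0.00386; 1.02 in batch A and 1.16 in batch B) and 0.94 ± 0.189 in the central SCN (1.92-fold, adjusted p = 0.0207; 1.00 and 0.88).

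In the dorsal SCN Ppp1r3c read 7.61, 7.22, 9.10 and 8.38 when pulsed and 6.71, 6.16, 8.29 and 8.43 after sham. The pulsed arrays were above the sham arrays in batch A, and in batch B dorsal pulsed replicate 4 lay between the sham arrays. The effect of 0.68 ± 0.189 missed the threshold (adjusted p = 0.214), and without that array it was 0.86 ± 0.174 and passed (adjusted p = 0.0329, beside 0.252% of all tested genes higher). Averaged over the regions, with 4 against 4 composites, Ppp1r3c rose by 0.90 ± 0.134 (1.87-fold, adjusted p = 0.0165) and was the 1 gene of 34 called, beside 0.356% of all tested genes higher and 0.0519% lower. The differences of its light effect between regions ranged from 0.15 to 0.41 in size and none had an unadjusted p under 0.05.

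Single arrays decided some of these calls. In the ventral SCN Ppp1r3c passed in all 24 leave-one-out fits (highest adjusted p = 0.0264). Its central call ended in 6 of 24, with the highest adjusted p of 0.114 without central sham replicate 2. Its averaged call ended in 15 of 24. For the averaged effect, leaving out an array removed its whole composite of 3 regions. Those 24 fits are therefore 1 fit for each of the 8 composites, counted 3 times. The second Ppp1r3c probe set was dim (mean 3.37) and gave light effects of 0.51, 0.33 and -0.16 in ventral, central and dorsal SCN. With the mean of both probe sets the central and averaged effects were 0.64 and 0.57 and no longer passed (adjusted p = 0.154 and 0.103).

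Dio2 read 5.08, 5.19, 7.39 and 7.90 on ventral pulsed and 4.56, 4.46, 5.31 and 6.14 on ventral sham arrays. The pulsed arrays lay above the sham arrays in both batches, by more in batch B (1.92) than in batch A (0.63), where Dio2 was close to the filter level. The effect was 1.27 ± 0.257 (2.42-fold, adjusted p = 0.0155). Leaving out ventral pulsed replicate 3, ventral pulsed replicate 4 or ventral sham replicate 3 left 1 gene called in the ventral SCN in place of 2, and the highest adjusted p for Dio2 was 0.0927, without ventral pulsed replicate 4. With the mean of all its probe sets the effect was 0.61 and still passed.

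Outside the ventral SCN Dio2 did not pass. Central arrays read 4.76, 4.54, 6.89 and 6.87 when pulsed and 5.02, 4.49, 6.02 and 5.80 after sham, an effect of 0.43 ± 0.257 (adjusted p = 0.752). Dorsal arrays read 5.27, 4.75, 6.68 and 7.21 when pulsed and 4.64, 4.69, 6.41 and 6.20 after sham, an effect of 0.49 ± 0.257 (adjusted p = 0.5). The central groups overlapped in batch A and not in batch B, and the dorsal groups overlapped in neither. Dio2 had the smallest p of the 34 for a light effect that differs between regions (limma's moderated F, adjusted p = 1), with a ventral effect larger by 0.84 than the central and by 0.78 than the dorsal effect.

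**Figure D4:**
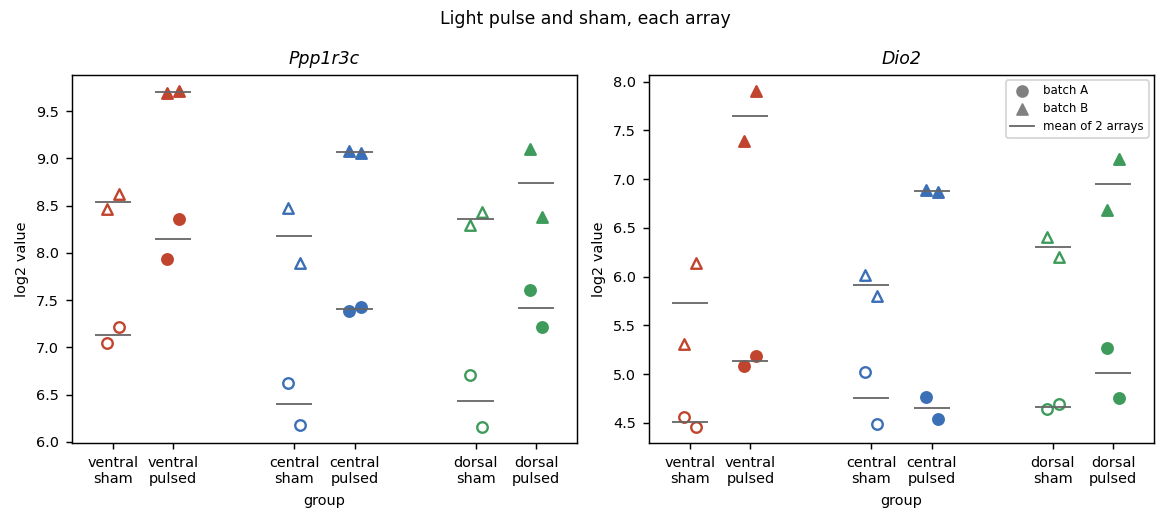
Log2 values of Ppp1r3c and Dio2 on each array by region and treatment, with circles for batch A, triangles for batch B, open symbols for sham, filled ones for pulsed, and lines for the mean of 2 arrays. Ppp1r3c pulsed arrays lie above sham arrays of their batch in all regions except for dorsal pulsed 4 (8.38 against 8.29 and 8.43), and the widest step of Dio2 is in the ventral SCN of batch B.

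For the other genes no pulsed minus sham difference within a region passed with all arrays. Hes5 had -0.89 ± 0.356 in the ventral SCN (adjusted p = 0.563), with ventral pulsed values of 7.01, 5.82, 5.97 and 6.22 and sham values of 7.19, 7.31, 7.08 and 7.01, which did not overlap within either batch. Without dorsal pulsed replicate 4 its adjusted p was 0.076. In the central SCN Htra1 (0.68 ± 0.218, adjusted p = 0.303) and Fabp7 (0.40 ± 0.142, adjusted p = 0.388) had positive values and did not pass. Negative values with an unadjusted p under 0.05 were those of Mfge8 (-0.50 ± 0.21, adjusted p = 0.532), Ntsr2 (-0.46 ± 0.199, adjusted p = 0.55) and Aqp4 (-0.40 ± 0.163, adjusted p = 0.485). For Mfge8 and Ntsr2 the gap lay mainly in batch A, with pulsed means of 5.95 and 7.08 and sham means of 6.97 and 7.94. In batch B these means were 7.63 and 9.26 against 7.61 and 9.32. Aqp4 was lower in both batches (7.69 against 8.05, and 10.07 against 10.51). Htra1 was also positive in the ventral and in the dorsal SCN (0.42 ± 0.218 in each), where it did not pass either.

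In the dorsal SCN the smallest unadjusted p after Ppp1r3c were those of Pla2g7 (-0.71 ± 0.290, adjusted p = 0.452) and Aldoc (-0.58 ± 0.285, adjusted p = 0.496). Both values shrank to -0.22 and -0.09 without dorsal pulsed replicate 4. No gene of the 34 passed the test of a light effect that differs between regions by limma, beside 0.00741% of all tested genes called. At an unadjusted p under 0.05 the count was 0, beside 2.05% of all tested genes, and without dorsal pulsed replicate 4 it was 2 (Aqp4 and Dio2, both adjusted p = 1), beside 2.92%. After Dio2 the smallest p of the 34 were those of Aqp4 and Hes5 (adjusted p = 1 for both).

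**Figure D5:**
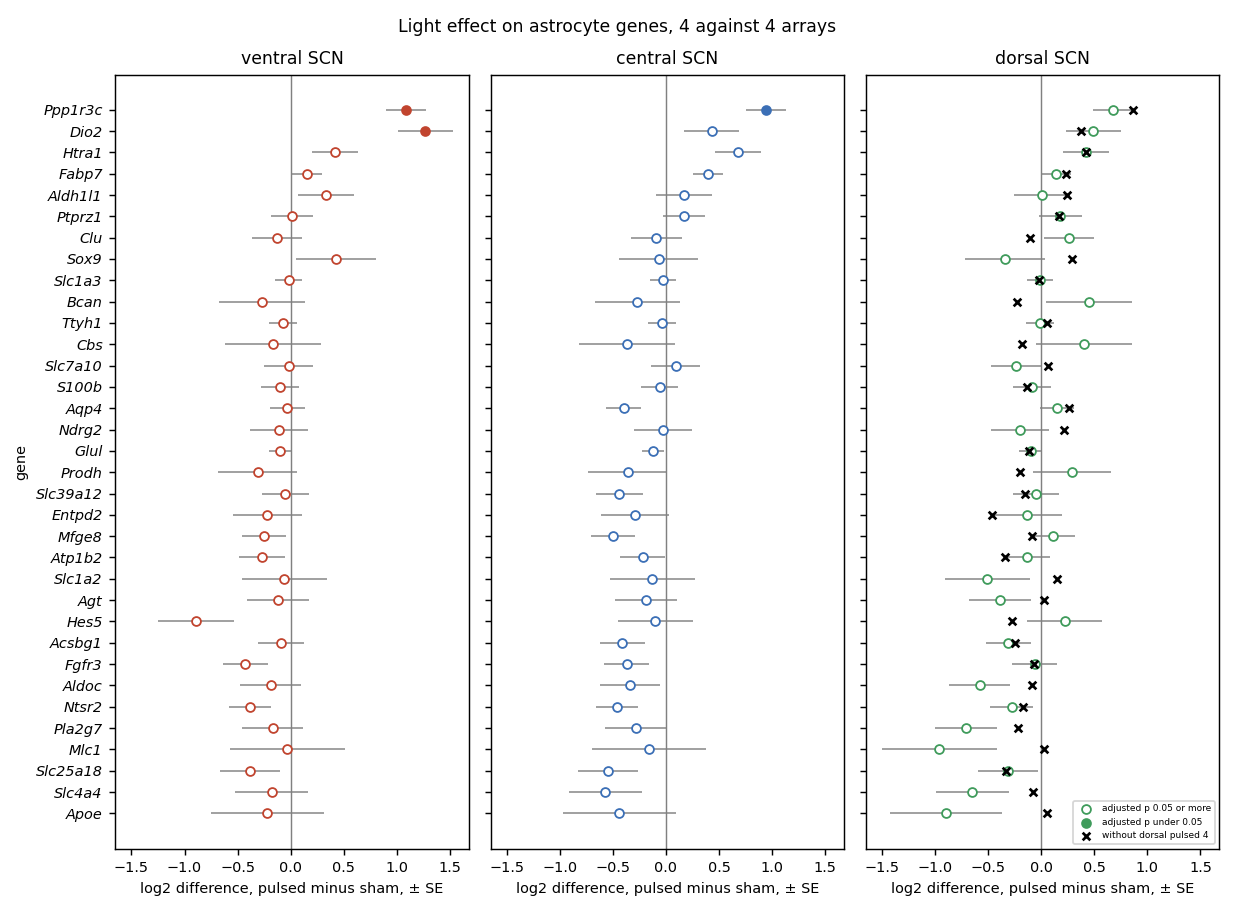
Pulsed minus sham log2 difference ± SE for the 34 genes in each region (limma, 4 against 4 arrays), ordered by the effect averaged over regions; filled points have an adjusted p under 0.05, and crosses in the dorsal panel give the value without dorsal pulsed 4. Ppp1r3c and Dio2 stand to the right in the ventral panel (1.09 and 1.27), Ppp1r3c in the central panel (0.94), and crosses of Mlc1, Apoe and Slc4a4 lie nearer 0 than their circles.

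Astrocyte genes outside the 34 were set beside them. Of the 48 further astrocyte genes, 1 rose in the ventral and 1 in the dorsal SCN, in both cases Gfap, the astrocyte filament protein (1.28 ± 0.263, adjusted p = 0.018, and 1.33 ± 0.263, adjusted p = 0.0319). Of all tested genes, 0.585% rose in the ventral and 0.148% in the dorsal SCN. In the central SCN limma called 0 of the 48, beside 0.296% of all tested genes higher and 0.0889% lower. At an unadjusted p under 0.05, 4 were higher and 12 lower, where 8.06% of all tested genes differed. Without dorsal pulsed replicate 4 limma called 2 of the 48 higher and 2 lower there. Of the 13494 tested genes, 164 were called in the central SCN in that fit, in either direction, against 52 with all arrays. Of 7 reactive and intermediate filament genes tested, 4 rose in the ventral SCN: Vim, another filament protein (1.6 ± 0.301), Osmr, the oncostatin M receptor (1.77 ± 0.334), S1pr3, a sphingosine phosphate receptor (1.3 ± 0.261), and Gfap. In the central SCN 0 of these 7 passed with all arrays. Without dorsal pulsed replicate 4, 3 of them passed there, beside 164 of the 13494 tested genes. With all arrays 6 were higher there at an unadjusted p under 0.05, where 8.06% of all tested genes differed. Marker lists of oligodendrocytes, microglia, endothelial and mural cells and neurons, with 12 to 17 genes each, had 0 genes called by limma in each region. At an unadjusted p under 0.05 the count per list and region was 4 or fewer. Of all tested genes, 6.56%, 8.06% and 10.1% differed at that cut in ventral, central and dorsal SCN.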

How the data were processed

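The authors deposited 1 log2 expression value per probe set (45101) and array (24). Of software, the submitters' processing notes list R 3.0.2, GCRMA 2.32.0 and MAS5, and the sources used here do not give how batches were normalized. Of the probe sets, 34945 carry 1 gene symbol, and the probe set with the highest mean stood for a gene. The test was that of limma 3.58.1, run in R 4.3.3 (lmFit, eBayes, two-sided, Benjamini-Hochberg over 13494 genes, threshold 0.05) on 6 group means plus batch (17 residual and 4.7 prior degrees of freedom). The averaged light effect used 8 composites of 3 regions (5 and 5.7), the interaction a moderated F. Errors after ± are SE. The fits were tested on simulated data. The number of arrays limits the precision.

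All 34 genes are accounted for: values are given for those past the threshold and, where none passed, for the 3 with the smallest p; genes of other lists are counted, with up to 4 named. The genes and lists were chosen with earlier results of these data known, so no test of a list is given. Some probe sets (Clu, Htra1, Bcan and Hes5 in type x_at, Cbs in s_at) can match related transcripts. Same-numbered arrays of different regions within a treatment deviated together (correlation 0.185 to 0.623 over genes, median 0.405, above 0.1 in 12 of 12 pairs). So did nearly all same-numbered arrays of different treatments (0.096 to 0.422, median 0.242, above 0.1 in 17 of 18). The correlation was therefore not confined to arrays of a treatment, but its median was higher within a treatment. The composites joined regions by replicate number, though neither the labels nor these correlations show that a number stands for shared mice. The other main fits used batch and not the number, and a fit with the replicate number as a block was an alternative. Others were leaving out arrays, batch settings, filters, probe set means, scalings, array weights and fits on parts of the arrays.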

Additional observations from a re-analysis of the deposited data

Results flagged for a closer look

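Within a group of 4 arrays, an array was listed where its gap to the nearest other array, divided by the group's range, exceeded Dixon's critical value for 4 samples at the 95% level. This held in 18 of 204 tests of a gene in a group, and chance gives about 1 in 20. Values are log2 minus the gene's batch mean. Dorsal pulsed replicate 4 accounted for 9: Slc1a2 (-2.08, the other 3 arrays 0.27 to 0.68), Slc7a10 (-0.80, 0.23 to 0.39), Mlc1 (-3.53, 0.16 to 0.23), Slc4a4 (-2.01, -0.07 to 0.30), Aldoc (-1.61, 0.24 to 0.26), Ndrg2 (-1.19, 0.35 to 0.37), Apoe (-3.27, 0.25 to 0.38), Bcan (2.51, -0.22 to 0.19) and Sox9 (-2.22, 0.00 to 0.32). That array also had the Gapdh 3' minus 5' difference of 5.41, whose part in these values was not tested.

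Ventral arrays gave Prodh on sham replicate 1 (0.80, the others -0.04 to 0.05) and Aqp4 on pulsed replicate 2 (0.57, 0.41 to 0.43). Central arrays gave Cbs (0.13, -1.0 to -0.86) and Entpd2 (0.35, -0.56 to -0.44) on sham replicate 1, Aldh1l1 (-0.96, -0.23 to -0.10) and Hes5 (-0.53, 0.06 to 0.10) on sham replicate 4, and Entpd2 on pulsed replicate 2 (-1.26, -0.43 to -0.27). Dorsal sham replicate 1 gave Mlc1 (-0.24, 0.35 to 0.43) and Apoe (-0.45, 0.55 to 0.63).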

How the results depend on the processing

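Counts below are of all genes called and, after a slash, of the 34 astrocyte genes, in the order light in ventral, central and dorsal SCN, ventral minus dorsal, ventral minus central, central minus dorsal, averaged light and interaction. With all arrays they were 97/2, 52/1, 24/0, 622/3, 702/19, 959/11, 55/1 and 1/0. Without the batch term they were 0/0, 0/0, 0/0, 4/0, 9/0, 7/0, 0/0 and 0/0. Batch A alone gave 10/0, 8/0, 2/0, 153/1, 199/11, 185/4, 3/0 and 0/0, and batch B alone 7/0, 5/0, 0/0, 124/0, 176/5, 214/3, 4/0 and 0/0, with 12 arrays each. Array weights gave 576/3, 204/2, 353/1, 1374/7, 1390/30, 1762/20, 476/2 and 2/0. Fits of the compared groups alone gave 196/1, 18/0 and 0/0 for light and 592 genes for central minus dorsal SCN. Sham arrays alone gave 212/1, 193/6 and 253/3 for the 3 region comparisons, and pulsed arrays alone 275 genes, 314/8 and 449/7. With 12 against 12 arrays the averaged light effect gave 549/3. The mean of all probe sets gave 0 of the 34 genes for central and for averaged light, quantile normalization 94 genes for central and 52 for dorsal light and 2 for the interaction, and median centring, the mean of all probe sets and a trended robust prior each 0 genes for the interaction. The cause of these moves was not tested, beyond the fewer arrays in the fits on parts of them.

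With the replicate block, counts moved by over 1.5 times to 98/2 for central light and 40 genes for dorsal light. So did averaged light, with 113 genes, and the interaction, with 0 genes. None of the 43 results on named genes, some of which had not passed, crossed the threshold with this block. The region counts were 769/4, 849/25 and 1248/14. Leaving out both dorsal pulsed replicate 4 and central pulsed replicate 2, chosen after seeing the data, gave 307 genes for ventral light, 128 for central, 54/1 for dorsal, 6 of the 34 for ventral minus dorsal, 1078 genes for ventral minus central SCN and 2 for the interaction. Leaving out each array in turn gave ranges of 47 to 207 and 1 to 2 for ventral light, 24 to 164 and 0 to 1 for central, 12 to 41 and 0 to 1 for dorsal, 488 to 727 and 2 to 5 for ventral minus dorsal (5 without central pulsed replicate 2), 549 to 1092 and 14 to 28 for ventral minus central, 714 to 1185 and 8 to 18 for central minus dorsal, 13 to 57 and 0 to 1 for averaged light, and 0 to 2 and 0 to 0 for the interaction. For averaged light, leaving out an array removed its whole composite. The highest counts of the 34 for ventral minus central, central minus dorsal and dorsal light came without dorsal pulsed replicate 4. No call on a named gene changed sign under any alternative run, and no filter or a filter at log2 above 6 moved no count by over 1.5 times. Medians kept their sign under median centring (0.64 for ventral minus central SCN against 0.02 over all genes) and quantile normalization (0.64 against 0.00). Genes near background in batch A, such as Slc7a10, Prodh and Dio2, limit what can be read there.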
